A study of Mus musculus with 4 samples.

Results

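Tendon fibroblasts 3 is the name the authors' deposited annotation gives to 51 of 1191 cells from mouse Achilles tendons. The cells were taken by that name alone. Single cells were read with droplet-based 3-prime RNA sequencing (version 3 of the 10x Chromium chemistry), which counts each captured transcript once by its unique molecular identifier (UMI). The study was designed as an atlas of tendon cell types. All 4 libraries, called libraries 1 to 4 here, came from Achilles tendons of male C57Bl/6 mice aged 6 weeks and form 1 group, and the labels do not say how many mice made a library. Library 1 held 45 of the 51 cells, library 2 held 3, library 3 held 1 and library 4 held 2. Levels were therefore compared within library 1, as counts per 1000000 UMIs (CPM) of cells summed by population. With 1 library there is no replicate check, so no test between populations was run, and intervals are exact Poisson intervals at 95% that cover counting error only. The authors formed the populations from these same counts, so differences between populations are descriptions.

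Tendon is built mainly of type I collagen fibrils made by tendon fibroblasts, in which the transcription factors Scx and Mkx and the membrane protein Tnmd are well-known marks. Around and between the fibre bundles lies looser connective tissue with vessels and nerves, whose fibroblasts make more type III collagen, elastic fibres and small secreted proteins. The genes given as marks of tendon fibroblasts 3 are Smoc2, a secreted calcium-binding matrix protein, Dpep1, a membrane dipeptidase, Osr1, a transcription factor of embryonic limb connective tissue, and Col3a1, the type III collagen chain.

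The 6 cells outside library 1 bore out the name only in part. All 6 held Smoc2 UMIs, between 3 and 42 a cell, and none held a UMI of Dpep1 or Osr1. Both genes are listed at 0 in every cell of libraries 2 and 4, so these zeros do not set the cells apart from their libraries. In library 3 the other cells held 4 UMIs of Dpep1 and 16 of Osr1. The transcripts of Col1a1, Col1a2 and Col3a1 made up a median of 12.1% of a cell's UMIs in library 1, with a range of 2.84% to 24.8%. In 3 of the 6 other cells (1 each in libraries 2, 3 and 4) that share was 0.379%, 0.377% and 0.283%, below every cell of library 1. Values of the 6 cells are given only where named.

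The 45 cells of library 1 fell into 2 sets that shared Dpep1 and Col3a1 and had other genes almost to themselves. Apod, which encodes a secreted lipid-binding lipocalin, stood between 7890 and 41010 CPM in 14 cells and between 0 and 1934 CPM in the other 31. No cell lay between 2000 and 7000 CPM, and the line was drawn at 5000 CPM after these values were seen, so what follows describes the sets and tests nothing. Gdf10, a secreted BMP-family growth factor, had no UMI in any of the 14 Apod-high cells and had a UMI in 30 of the 31 others. Depth was close in both sets. The median cell held 6690.5 UMIs and 2342 genes in the Apod-high set, against 6849 UMIs and 2357 genes in the other. The mitochondrial share had a median of 3.39% and 3.11%.

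**Figure D1:**
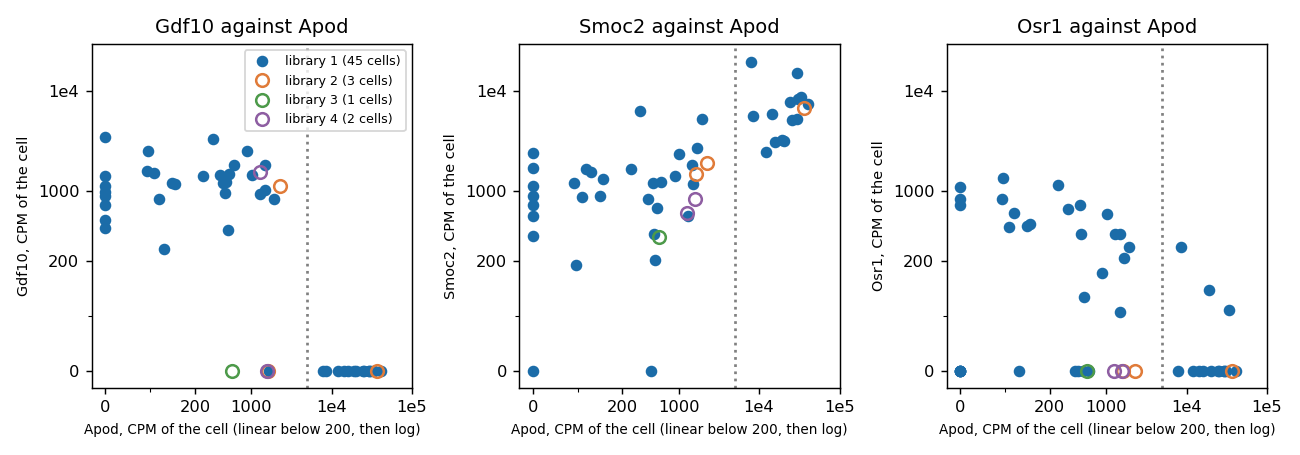
Each point is 1 of the 51 cells named tendon fibroblasts 3, with its Apod level on the horizontal axis and its Gdf10, Smoc2 or Osr1 level on the vertical axis, all in CPM on axes that are linear below 200 and logarithmic above. The dotted line stands at 5000 CPM of Apod. The 14 cells of library 1 to its right have no Gdf10 UMI and at least 2489 CPM of Smoc2.

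The marker genes divided unevenly between the sets. Smoc2 was present in all 14 Apod-high cells, from 2489 to 19720 CPM with a median of 5849, and in 29 of the 31 others, from 0 to 6304 CPM with a median of 1185. The summed levels were 5857 CPM (5374 to 6372) and 1265 CPM (1116 to 1429), a ratio of 4.63 (3.98 to 5.39), and the 2 ranges of cells overlap. Osr1 lay the other way. Its UMIs were found in 21 of the 31 cells and in 3 of the 14, at 436.5 CPM (350.5 to 537) against 32.5 CPM (6.70 to 94.9), a ratio of 13.4 (4.45 to 66.4). Osr2, the paralog of Osr1, had 17 UMIs in 8 Apod-high cells and 1 UMI in the other 31. Dpep1 had UMIs in 9 of the 14 Apod-high cells and in 28 of the 31 others. It had 433 CPM (309 to 590) in the Apod-high set and 618 CPM (515 to 736) in the other, and the interval of their ratio, 0.478 to 1.01, includes 1. Col3a1 was in every cell of both sets, at 38470 and 34090 CPM.

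Upstream sequence is shown for a gene of each set and for Dpep1, a marker that both shared. The 250 bases before the RefSeq start site (build GRCm38.p6, the patch release of the mm10 build) are printed 5′ to 3′ on the gene's strand for Apod (chr16:31314809-31315058, minus strand), Gdf10 (chr14:33923337-33923586, plus strand) and Dpep1 (chr8:123185985-123186234, plus strand). Capitals mark GGGCGG on either strand. TATAAA and CCAAT were searched on both strands as well and were not found in these 3 windows.
Apod: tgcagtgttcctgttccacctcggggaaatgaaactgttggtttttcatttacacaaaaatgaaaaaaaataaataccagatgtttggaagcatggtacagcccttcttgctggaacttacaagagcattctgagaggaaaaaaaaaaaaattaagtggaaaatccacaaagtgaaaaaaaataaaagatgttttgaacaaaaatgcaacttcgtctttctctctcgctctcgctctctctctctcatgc
Gdf10: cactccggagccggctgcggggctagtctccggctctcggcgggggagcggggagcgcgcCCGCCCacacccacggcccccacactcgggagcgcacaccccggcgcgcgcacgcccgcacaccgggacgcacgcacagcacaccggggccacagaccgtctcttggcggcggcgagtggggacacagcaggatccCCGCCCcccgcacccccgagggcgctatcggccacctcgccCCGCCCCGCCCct
Dpep1: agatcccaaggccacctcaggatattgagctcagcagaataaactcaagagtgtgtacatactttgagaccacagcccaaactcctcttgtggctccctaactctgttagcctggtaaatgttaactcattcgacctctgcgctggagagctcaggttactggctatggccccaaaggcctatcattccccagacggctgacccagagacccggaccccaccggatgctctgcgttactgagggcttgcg
The Gdf10 window held 4 matches to GGGCGG and 78.8% G and C, the Apod window 36.4% and the Dpep1 window 53.6%. The window of Gpc3, another gene higher in the Apod-high set, is not printed. It held 71.6% G and C, 3 matches to GGGCGG and 1 to CCAAT, so Apod does not stand for its set. That of Col3a1, also shared, held 35.2% and 1 match to TATAAA. Over 32851 RefSeq promoter windows of the same length the median G and C share was 52.4%, and 32.7% held GGGCGG, 12.4% TATAAA and 33.8% CCAAT. A match describes the letters and is not a binding site.

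Of 2633 genes with enough UMIs (at least 50 CPM and 10 UMIs on the higher side), 174 (6.61%) were 4-fold or more higher in the Apod-high set and 103 (3.91%) were 4-fold or more lower. Since 10 UMIs are a larger share of the smaller sum, low genes of the 14 cells were more often left out than those of the 31. The genes named here are the largest ratios at 200 CPM or more, and were chosen after their values were seen. The Apod-high set led in Spp1 (osteopontin, a secreted phosphoprotein), with 105 UMIs in 12 cells against 3 UMIs, a ratio of 77.3 (25.7 to 381). It also led in Sox9, a transcription factor of cartilage and other lineages, with 62 UMIs in 13 cells against 3 UMIs, a ratio of 45.6 (14.9 to 227). Cyp26b1, which breaks down retinoic acid, had 62 UMIs against 1, Col8a1, a short-chain collagen, 51 against 1, and Enpp2, the enzyme autotaxin, 49 against 1. Shisa3 had 34 UMIs in 12 Apod-high cells and none in the 31 others or in any other population of library 1, and over a floor of 3 UMIs the whole population was at least 24.0-fold above tendon fibroblasts 1. Gpc3, a cell-surface glypican, ran from 1410 to 4893 CPM in the 14 cells and from 0 to 1382 CPM in the others, so that its ranges did not overlap. Ccl11 (eotaxin, a chemokine for eosinophils) was in all 14 cells and in 4 of the 31, at 1137 CPM (930 to 1376) against 68.7 CPM (37.5 to 115). Angptl7 had 44 UMIs, all within 5 of the 14 cells, so the Apod-high cells also differed among themselves.

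Some elastic-fibre genes were found almost only in the 31 other cells. Eln, the elastin precursor, was in 29 of them, with a median of 1292 CPM and a highest value of 7439, and had 1 UMI in the whole Apod-high set. That single UMI gives a ratio of 205 with an interval of 36.6 to 8123. Mgp, the matrix Gla protein that inhibits calcification, was in all 31 cells at 5841 CPM (5514 to 6182) and in 5 of the 14 at 75.8 CPM (30.5 to 156). Fmo2, a flavin monooxygenase (242 UMIs), Cygb, the globin cytoglobin (179 UMIs), Mfap4, a microfibril-associated protein (163 UMIs), Mmp3, the protease stromelysin (129 UMIs), and Chrdl1, a secreted BMP antagonist (113 UMIs), had none in the Apod-high cells. Against a floor of 3 UMIs for the 14 cells, Fmo2 was at least 36.5-fold, Cygb at least 27.0-fold, Mfap4 at least 24.6-fold and Chrdl1 at least 17.1-fold lower there. C2, a complement protease, had 128 UMIs in 28 of the 31 cells and 1 UMI in the 14, a ratio of 58.0 (10.2 to 2308).

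Gene groups were read against the shares over all 2633 genes, 6.61% higher in the Apod-high set and 3.91% higher in the 31 cells. Of 17 elastic-fibre and microfibril genes with enough UMIs, 6 were past 4-fold higher in the 31 cells (Eln, Fbln1, Fbln5, Ltbp4, Mfap4 and Lox) and 1, Efemp1, in the Apod-high set. Of 19 TGF-beta and BMP genes, 7 were higher in the 31 cells and none in the 14. They included Gdf10, the BMP antagonists Nbl1, Chrdl1 and Fst, the receptor Bmpr2 and the target gene Id2. The group's median log2 ratio was -1.59, against -0.236 over all genes with enough UMIs. Of 6 complement genes, 3 were likewise higher in the 31 cells, C2 and C7 among them. The ligands split: Il33, Ccl2, Ccl7, Ccl11 and Cxcl1 were higher in the Apod-high cells, and Fgf7, Ntn1, Sema3d and Cxcl14 in the others, of 20.

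Markers of other cell types were measured in both sets. Their counts stand beside 6.61% of all genes higher in the Apod-high set and 3.91% higher in the 31 cells. Of 10 genes listed for endoneurial fibroblasts, the connective tissue cells within nerve bundles, 5 had enough UMIs. All 5 (Osr2, Sox9, Abca9, Trpm6 and Col26a1) were past 4-fold higher in the Apod-high set. The list summed to 1721 CPM there and to 53.9 CPM in the 31 cells, and tendon fibroblasts 1 and 2 had 558.5 and 331.7 CPM. These 5 genes had enough UMIs through the Apod-high set alone. The count of 5 was thus largely set by the filter and does not name the cells. Of 10 chondrocyte and osteoblast markers, 2 had enough UMIs and both (Sox9 and Spp1) were higher in the Apod-high set. The list summed to 1949 CPM there against 58.9, and both genes again had enough UMIs through that set alone. The same list summed to 11130 CPM in tendon fibroblasts 1, above both sets, and to 114 CPM in tendon fibroblasts 2. Tendon fibroblasts 1 held Spp1 at 8649 CPM and Sox9 at 374 CPM, so neither gene is particular to the Apod-high set. The 10 Schwann cell markers, for the glia of nerves, summed to 498 CPM in the Apod-high set and 368 CPM in the other, against 15670 to 111700 CPM in the 3 nerve cell populations. Sox10, a transcription factor of that lineage, was at 0 in all 45 cells. Of 2 Schwann markers with enough UMIs, Cdh19 was past 4-fold higher in the Apod-high set. So was Cldn1, the 1 perineurial (nerve sheath) marker with enough UMIs. Endothelial markers summed to 141 and 49.0 CPM, against 8818 to 9209 CPM in endothelial cells. Macrophage markers summed to 43.3 and 49.0 CPM, against 20420 CPM in immune cells. Pericyte and smooth muscle markers summed to 281.5 and 652 CPM, against 28970 CPM in pericytes. Of 5 with enough UMIs, 1 was past 4-fold higher in each set. Cspg4 was higher in the Apod-high set, and Abcc9, a potassium-channel subunit, had 40 UMIs in 16 of the 31 cells and none in the 14.

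The same division was visible in some of the cells outside library 1. A library 2 cell with 222 Apod UMIs (36340 CPM) had 42 UMIs each of Smoc2 and Gpc3 and none of Gdf10, Mgp or Fmo2. A second library 2 cell had 26 Apod UMIs, 13 of Gdf10, 19 of Eln and 367 of Mgp. Its Apod level of 2257 CPM lay between 2000 and 7000 CPM, where library 1 had no cell. In 1 library 4 cell, Apod, Gdf10, Eln and Mgp had 19, 23, 7 and 191 UMIs. That library 4 cell also held 46 UMIs of Prg4, the lubricin of joint and bursal linings. The 3 cells poor in collagen transcripts matched neither set, with 5 to 27 Apod UMIs, no Gdf10 and 2 to 11 Mgp UMIs. They held some genes of both sets. C2 had 6, 9 and 17 UMIs in the cells of libraries 2, 3 and 4, and Fmo2 had 15 in that of library 3. Sox9, Spp1 and Gpc3 had 7, 7 and 13 UMIs in the library 2 cell and 4, 14 and 10 in the library 4 cell. Among the other populations of library 1, 2 cells passed 5000 CPM of Apod, both of them tendon fibroblasts 2.

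As a whole, tendon fibroblasts 3 of library 1 stood well above every other population in 3 of the 4 markers. Smoc2 was at 2697 CPM (2513 to 2890) and its next level was 11.1 CPM (4.48 to 23.0) in tendon fibroblasts 1, followed by tendon fibroblasts 2 at 3.84 CPM (0.792 to 11.2), whose intervals overlap. Dpep1 was at 560 CPM (478 to 652), with 12.8 CPM (6.14 to 23.6) in tendon fibroblasts 2 and no UMI in tendon fibroblasts 1 or bursal fibroblasts. Osr1 was at 310.5 CPM (250 to 381), with 7.69 CPM (2.82 to 16.7) in tendon fibroblasts 2 and again none in tendon fibroblasts 1 or bursal fibroblasts. Col3a1 was graded rather than separate. From the highest level down, the order was tendon fibroblasts 3 at 35450 CPM, tendon fibroblasts 2 at 18680, tendon fibroblasts 1 at 4203, nerve cells 3 at 2911 and bursal fibroblasts at 2487, and the last 2 have overlapping intervals. The order was not that of every library. In libraries 3 and 4, on 1 and 2 cells, Col3a1 was lower in tendon fibroblasts 3 (1487 and 6715 CPM) than in tendon fibroblasts 2 (25200 and 18730 CPM), and without library 1 the log2 ratio was -1.12 in place of 0.92.

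**Figure D2:**
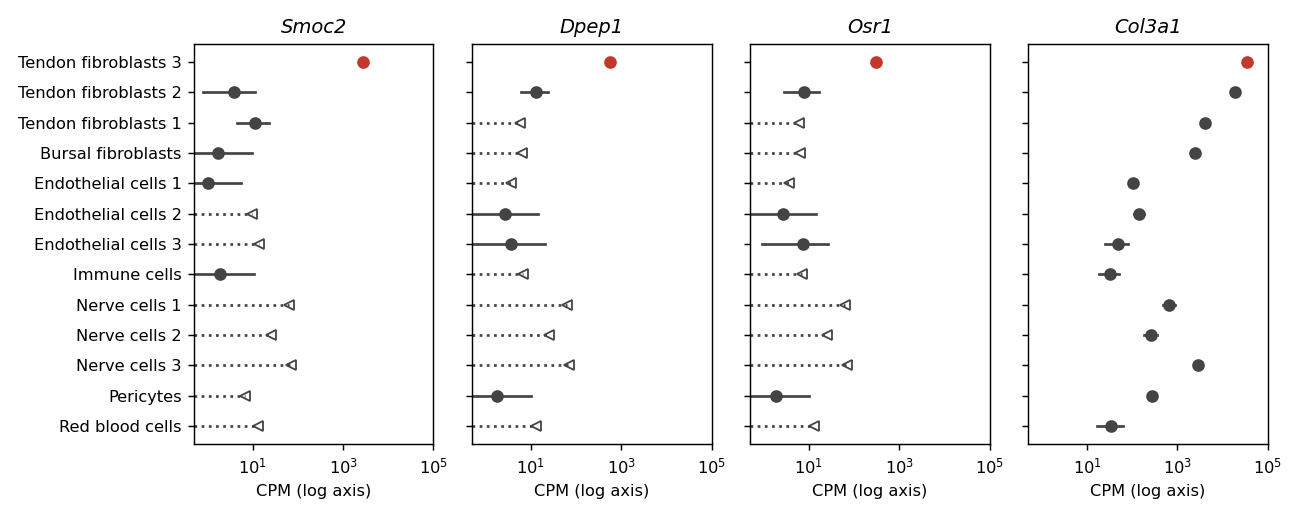
Levels of the 4 markers in the 13 populations of library 1, in CPM on a log axis, with exact Poisson intervals at 95% as lines. Open triangles with dotted lines mark the upper limit where no UMI was found. Smoc2, Dpep1 and Osr1 of tendon fibroblasts 3 (red) lie to the right of every other interval, and Col3a1 does so by less than a factor of 2 over tendon fibroblasts 2.

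Cell by cell, Smoc2 was found in 43 of the 45 cells, Dpep1 in 37, Osr1 in 24 and Col3a1 in all 45. All 4 markers were found together in 22 cells, 3 of them in 15 cells and 2 of them in 8. With every cell thinned to 2400 UMIs, which left out 5 of the 45 cells, the shares were 90% for Smoc2, 75% for Dpep1, 50% for Osr1 and 100% for Col3a1, with exact binomial intervals of 76.3% to 97.2%, 58.8% to 87.3%, 33.8% to 66.2% and 91.2% to 100%. In endothelial cells 1, which should lack these transcripts and had a median of 8162 UMIs against 6812, the thinned shares of 89 cells were 1.12%, 0, 0 and 15.7%, and 0 of 89 cells allows a share of up to 3.37% (3 cells of 89). A share of cells with Col3a1 up to that level is read as background. In all of library 1, 92.7% of the Dpep1 UMIs (87.9% to 96.1%) and 90.2% of the Osr1 UMIs (82.7% to 95.2%) lay in the 45 cells.

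The nearest population in expression was tendon fibroblasts 2. Over 7759 genes, with sums thinned to 52900 UMIs, the log levels of tendon fibroblasts 3 had a Pearson correlation of 0.71 with those of tendon fibroblasts 2, 0.629 with tendon fibroblasts 1, 0.616 with bursal fibroblasts and 0.548 with pericytes, as a description across genes. Of 1273 genes at 100 CPM or more in tendon fibroblasts 3, 250 had their highest level there, and 35 were at least 4 times the next population. Among the 15 with the largest margins were Shisa3, Smoc2, Gabra3, Rbp4, Dpep1, Osr1, Tspan11, Mdk, Ms4a4d, Gpc3, C2, Mmp3, Srpx and Epha3. Within the population these too were divided. Shisa3, Smoc2 and Gpc3 were past 4-fold higher in the Apod-high cells, Gabra3, Rbp4, Osr1, Tspan11, C2, Mmp3 and Epha3 in the other cells, and Dpep1, Mdk, Ms4a4d and Srpx differed by less than 4-fold.

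Tendon fibroblasts 2 differed from tendon fibroblasts 3 in 359 of 3676 genes past 4-fold, of which 179 (4.87%) were higher in tendon fibroblasts 3 and 180 (4.9%) lower. The largest ratio was that of Smoc2, 702 (239 to 3411) over 3 UMIs. Fmo2 followed with 817 CPM over 2.56 CPM, then C2, at least 113-fold higher over no UMI, Ccl11 with 402 CPM over 3.84, Ifit3, an interferon-induced gene, with 294 over 1.28, and Spp1 with 364.5 over 5.12. Kitl, the ligand of the KIT receptor, was at 267 CPM over 5.12, and Trf, the iron carrier transferrin, at 236 over 5.12. Several of these rested on 1 of the sets. Relative to tendon fibroblasts 2, the log2 ratio of Spp1 was 7.79 in the Apod-high cells and 1.52 in the others. That of Trf was 7.03 and 2.94, larger in the Apod-high cells but above 4-fold in both sets. That of Fmo2 was 8.27 in the 31 cells, and Fmo2 had no UMI in the 14. Apod itself, 9.72-fold higher in the whole population, had a log2 ratio of 4.90 in the Apod-high cells and -0.68 in the others. Kitl was spread over both, in 13 of 14 and 20 of 31 cells. Ifit3 was in 8 and 5 cells, and its highest population was nerve cells 3, at 2665 CPM.

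Lower than in tendon fibroblasts 2 were several secreted and surface proteins. Gpx3, the plasma glutathione peroxidase, had no UMI against 1195 CPM, and Anxa8, an annexin, none against 752 CPM, at least 118-fold and 74.3-fold lower. C4b was at 6.75 CPM against 1132, C3 at 16.9 against 984, and Cd55, a surface inhibitor of complement, at 13.5 against 479. Prg4 was at 50.6 CPM against 3411, Nov, a matricellular growth regulator, at 10.1 against 631, Aqp1, a water channel, at 10.1 against 530, Sbsn at 6.75 against 484, and Tppp3, known from the tendon sheath, at 16.9 against 493.

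Tendon fibroblasts 1 differed more widely. Of 3593 genes, 357 (9.94%) were 4-fold or more higher in tendon fibroblasts 3 and 262 (7.29%) lower, and scaling by TMM factors, which shifts all log2 ratios by -0.203, made that 311 and 311. These comparisons share the tendon fibroblasts 3 sum, so their values stand side by side and are not independent. Apod was at 7419 CPM against 19.1 CPM, Gpc3 at 1401 CPM against no UMI (at least 293-fold), Eln at 1532 against 6.37 and Dpt, dermatopontin, at 661.5 against 1.59. Mfap4 was at 550 CPM against 3.18, Cygb at 604 against 4.77, and Gdf10 had a ratio of 541 (96.2 to 21450) over 1 UMI. Several secreted proteins of tendon fibroblasts 1 were lower. Chad (chondroadherin) was at 13.5 CPM against 13710, Comp at 30.4 against 11540, Cilp2 at 3.38 against 5340, Clu (clusterin) at 10.1 against 14200 and Prg4 at 50.6 against 6653. Ibsp, bone sialoprotein, had no UMI against 1679 CPM, Fibin was at 6.75 against 810, and Ptgis, the prostacyclin synthase, at 10.1 against 691.

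**Figure D3:**
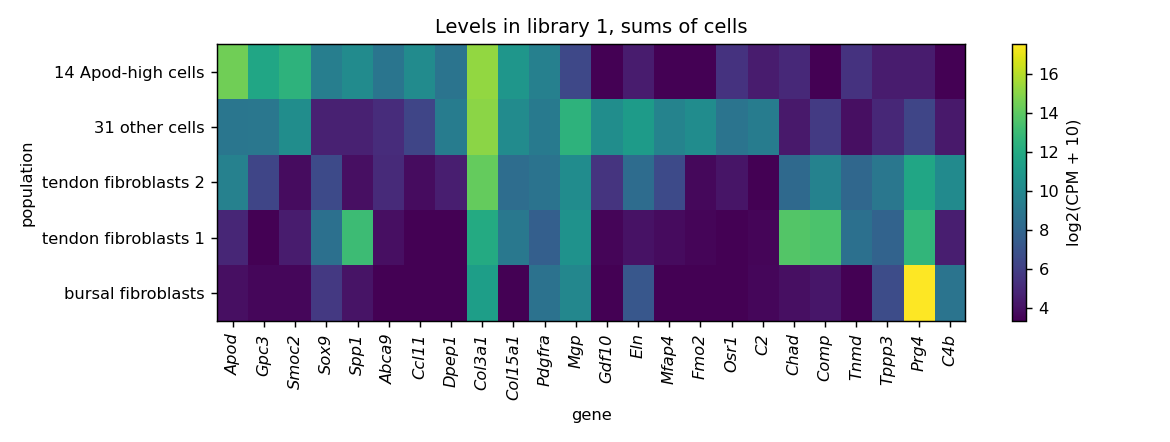
Summed levels in library 1 as log2(CPM + 10), for 24 genes (columns) in the 14 Apod-high cells, the 31 other cells named tendon fibroblasts 3 and 3 other fibroblast populations (rows). Apod, Gpc3, Sox9 and Spp1 are high in the first row, Mgp, Gdf10, Eln, Mfap4, Fmo2, Osr1 and C2 in the second, and Col3a1 and Dpep1 in both.

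The classic tendon genes Scx, Mkx and Tnmd were low in tendon fibroblasts 3, in both sets. Scx and Mkx had no UMI in any of the 45 cells, with an exact Poisson upper limit of 12.4 CPM, against 60.5 and 55.7 CPM in tendon fibroblasts 1. Tnmd had 4 UMIs, 13.5 CPM against 364 in tendon fibroblasts 1 and 256 in tendon fibroblasts 2. Of 29 tendon fibroblast genes with enough UMIs, 18 were past 4-fold lower than in tendon fibroblasts 1 and 4 higher, with a median log2 ratio of -2.58 against 0.172 over all genes. Against tendon fibroblasts 2, 12 of 27 were lower and none higher, with a median of -1.66 against -0.162. Between the 2 sets the list was divided. Of 19 genes, 5 (Thbs4, Thbs1, Col11a1, Angptl7 and Myoc) were past 4-fold higher in the Apod-high cells, beside 6.61% of all genes. Another 4 (Fmod, Bgn, Aspn and Col14a1) were higher in the other cells, beside 3.91%. In library 1 the main collagens were not among the genes lower than in tendon fibroblasts 1 or 2. There Col1a1 was at 49520 CPM against 47350 in tendon fibroblasts 1 and 23330 in tendon fibroblasts 2, and Col1a2 at 43100 against 28680 and 16580. In libraries 2, 3 and 4, on 3, 1 and 2 cells, Col1a1 was lower in tendon fibroblasts 3, at 24720, 1372 and 8346 CPM against 69710, 42190 and 44380 in tendon fibroblasts 1. Col1a2 was lower there too, at 17280, 915 and 5648 CPM against 37500, 28130 and 29210. For each 100 Col1a1 UMIs there were 71.6 of Col3a1, against 8.88 in tendon fibroblasts 1 and 80.1 in tendon fibroblasts 2 of library 1. In libraries 2, 3 and 4 the value was 72.9, 108 and 80.5 in tendon fibroblasts 3 (on 801, 12 and 266 Col1a1 UMIs) and 5.85, 9.40 and 12.8 in tendon fibroblasts 1. The ratio was thus above that of tendon fibroblasts 1 in each of the 4 libraries, although the library 3 value rests on a single cell. In tendon fibroblasts 2 it was 21.3, 39.8 and 43.4 in libraries 2, 3 and 4, so the order of these 2 populations in library 1 turned in the other 3.

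**Figure D4:**
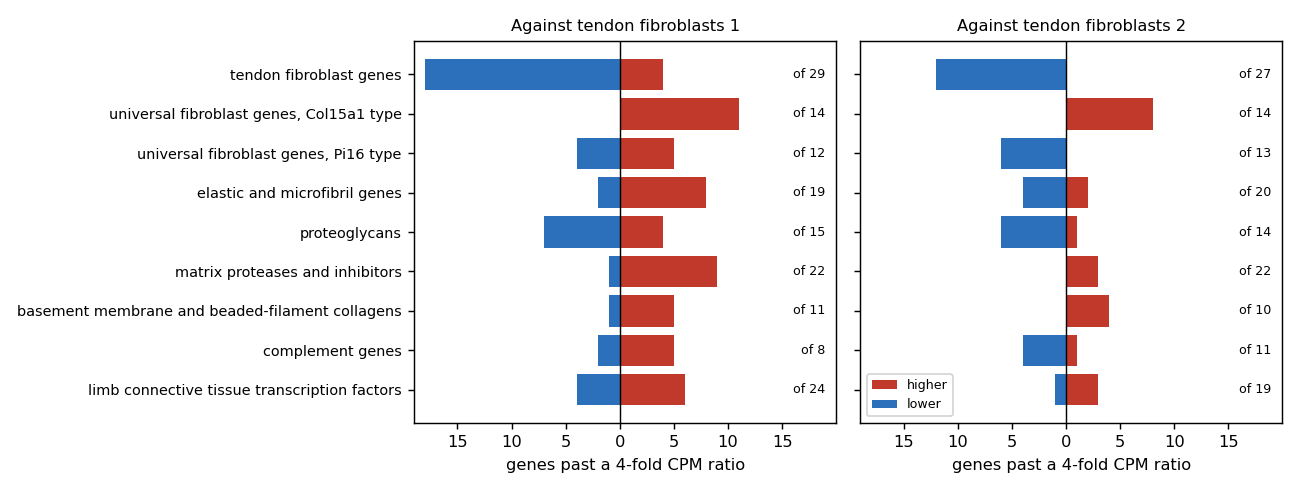
Number of genes of each list that were past a 4-fold CPM ratio in tendon fibroblasts 3 of library 1, higher to the right and lower to the left, against tendon fibroblasts 1 (left panel) and tendon fibroblasts 2 (right panel). The numbers at the right give how many genes of the list had enough UMIs. Tendon fibroblast genes were lower in 18 of 29 and 12 of 27 cases, and Col15a1-type fibroblast genes higher in 11 of 14 and 8 of 14. Over all genes, 7.29% and 4.9% were lower, and 9.94% and 4.87% higher.

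Of 2 lists of genes known from fibroblasts of many organs, 1 was higher. Over all genes, 9.94% were past 4-fold higher and 7.29% lower than in tendon fibroblasts 1, and 4.87% and 4.9% than in tendon fibroblasts 2. Of 14 genes of the type marked by Col15a1, a basement-membrane-associated collagen, 11 and 8 were higher, with none lower. Their median log2 ratios were 4.19 and 2.11, against 0.172 and -0.162 over all genes. The 2 sets shared this list unevenly. Gpc3, Apod and Hsd11b1 were past 4-fold higher in the Apod-high cells, and Dpt, Cygb and Fmo2 in the other cells. Col15a1 was at 1340 CPM against 506 and 324, Lpl, lipoprotein lipase, at 526.5 against 28.6 and 73.0, and Podn, the proteoglycan podocan, at 462 against 25.5 and 44.8. Pdgfra, the receptor that marks many fibroblasts, was at 618 CPM against 185 and 419. Genes of the other shared type, marked by Pi16, were divided: 5 of 12 higher and 4 lower than in tendon fibroblasts 1, and none of 13 higher and 6 lower than in tendon fibroblasts 2. Pi16 itself was at 135 CPM, against no UMI and 215 CPM, and its UMIs lay in 18 of the 31 cells and none of the 14.

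The counts against tendon fibroblasts 1 that follow stand beside 9.94% of all genes higher and 7.29% lower, and those against tendon fibroblasts 2 beside 4.87% and 4.9%. Among 24 limb connective tissue transcription factors, 6 were past 4-fold higher than in tendon fibroblasts 1 (Osr1, Osr2, Twist2, Nr2f2, Ebf1 and Ebf2) and 4 lower (Pitx1, Runx1, Scx and Mkx). Of these, Osr1, Twist2 and Nr2f2 were also past 4-fold higher than in tendon fibroblasts 2. Nr2f2, a nuclear receptor of venous and mesenchymal cells, was at 408 CPM against 3.18 and 10.3, and was in 13 of 14 and 23 of 31 cells. Of 27 TGF-beta and BMP genes, 5 were higher than in tendon fibroblasts 1 (Gdf10, Chrdl1, Fst and Fstl1 among them) and 5 lower (Tgfbr1, Inhba, Bmp2, Gdf5 and Grem1). Complement genes C1ra, C1s1, C2, C7 and Serping1 were higher than in tendon fibroblasts 1, 5 of 8, and Cd55 and Clu lower. Of 11 against tendon fibroblasts 2, C2 was higher and C3, C4b, Cd55 and Clu were lower. The list summed to 3743 CPM, against 15600 and 6134 CPM in tendon fibroblasts 1 and 2. Clu alone made up 14200 of those 15600 CPM, but only 10.1 of the 3743 CPM. The larger sum of tendon fibroblasts 1 thus rests on Clu and does not describe the rest of the list. Of 19 elastic-fibre and microfibril genes, 8 were higher and 2 lower than in tendon fibroblasts 1. Of 20 against tendon fibroblasts 2, Eln and Mfap4 were higher and 4 were lower (Ltbp2, Emilin2, Loxl1 and Loxl3), with a median of -0.247 against -0.162 over all genes. Of 19 dissociation-induced early genes, none was past 4-fold either way against tendon fibroblasts 1 or 2, and no cell cycle gene had enough UMIs to be compared with tendon fibroblasts 1.

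Bursal fibroblasts and the non-fibroblast cells were further away. Against bursal fibroblasts, 435 of 3588 genes (12.1%) were past 4-fold higher and 205 (5.71%) lower. Apod, Smoc2, Gpc3, Col15a1 and the long noncoding RNA Meg3 led, Meg3 with 1218 CPM against 1.69. Prg4, at 50.6 CPM against 192100, and Clic5, Rgcc, Pla1a and Htra4 were lowest. All 9 bursal and synovial lining markers were past 4-fold lower. They had enough UMIs through the bursal sum, where they are high, so this count was largely set by the choice of list and the filter. Bursal fibroblasts also had deeper cells, with a median of 19394 UMIs, and with every cell thinned to 2400 UMIs 152 genes were higher and 134 lower of 1631. Of 19 dissociation-induced early genes, 15 were past 4-fold higher than in bursal fibroblasts, with a median log2 ratio of 3.04. All 4 hemoglobin genes were lower in the sums, at 213 CPM together against 9356 CPM. The median cell lay the other way, with 0.0185% of its UMIs from hemoglobin against 0.00681% in bursal fibroblasts. The summed difference is thus not that of the typical bursal cell. Against all cells that are not fibroblasts, 355 of 4306 genes (8.24%) were higher, led by Smoc2, Lum, Dpep1, Mfap4 and Podn, and 564 (13.1%) lower, Cd36, Acta2, Lyz2 and Aqp1 among those furthest down.

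The share of tendon fibroblasts 3 differed widely between libraries of the same group. It was 7.76% of 580 cells in library 1 (exact binomial interval 5.72% to 10.2%), 1.22% of 246 in library 2 (0.252% to 3.52%), 0.391% of 256 in library 3 (0.00989% to 2.16%) and 1.83% of 109 in library 4 (0.223% to 6.47%). The value of library 1 lies above the intervals of the other 3 libraries, and its own interval overlaps that of library 4. The mean was 2.80% ± 3.36 (SD, n = 4). Among tendon fibroblasts alone the shares were 26.2%, 21.4%, 0.617% and 6.25%, so that libraries 1 and 2 were close on this denominator, with 45 of 172 and 3 of 14 cells. Fewer cells of a type, a different yield on dissociation and a different assignment of names cannot be told apart in shares.

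**Figure D5:**
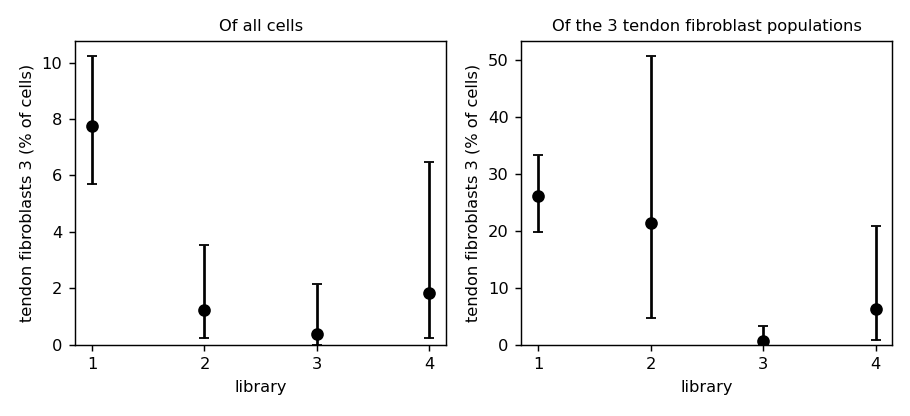
Percent of cells named tendon fibroblasts 3 in each of the 4 libraries, of all cells (left) and of the 3 tendon fibroblast populations (right), with exact binomial intervals at 95%. Library 1 is highest in both, at 7.76% and 26.2%.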

How the data were processed

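Single cells of 4 mouse Achilles tendon libraries were analysed from the raw UMI counts that the authors deposited for every gene in every cell, with their annotation of each cell (library and population). Per the submitters' processing notes, Cell Ranger, Seurat 2.3.4 and R 3.5.2 were used with the mm10 build. Aligner settings, cell filters and the clustering are not given in the sources used here. The deposited normalized values were not used. Cells held 1010 UMIs or more, and libraries 1 to 4 held 5603366, 2252390, 2269014 and 1375111 UMIs in 580, 246, 256 and 109 cells. No cell barcode was shared between libraries. Of 15750 gene entries, 4 with repeated names were left out, with 0.0186% of UMIs. No doublet caller was run, and the labels do not say whether doublets had been removed. Nothing says that libraries came from separate mice.

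Counts were summed over the cells of a population and divided by the sum's total (CPM). A ratio raised counts under 3 to a floor of 3 UMIs over the whole sum. Where a named gene had 1 to 3 UMIs on the lower side, the text gives the ratio of the counts as they are, with its counting interval. A gene entered a comparison with 50 CPM and 10 UMIs on the higher side and was counted past a ratio of 4. Named genes were the 10 highest and 10 lowest ratios at 200 CPM or more against tendon fibroblasts 1 and 2, the 5 highest and lowest in the other comparisons, 15 genes by margin over the next population (100 CPM or more), and members of 32 gene lists. A few genes that this rule picks are not reported here. The cells, the genes and the lists were chosen with earlier results of these data known, and the division by Apod was added after seeing the cells. On simulated counts the comparisons between populations were checked to recover known changes. Those counts held counting error only, with no spread between cells, and the division by Apod was not simulated. TMM factors came from edgeR 4.0.16 under R 4.3.3, and intervals from scipy 1.17.1 under Python 3.11.15. Gene positions came from GENCODE M21 and promoter sequences from RefSeq, where 5 of 10 genes looked up had an entry.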

Additional observations from a re-analysis of the deposited data

Results flagged for a closer look

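Dpep1 stood at 560 CPM and Osr1 at 310.5 CPM in tendon fibroblasts 3 of library 1, and neither had a UMI in the 6 cells of libraries 2 to 4, so library 1 lies far from the other 3. With 3 values at 0 the gap fills the whole range by construction, and this says nothing beyond the zeros. No UMI of either gene was found in any cell of libraries 2 and 4. The single cell of library 3 allows up to 422 CPM by its exact Poisson limit, which is above the Osr1 level of library 1.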

How the results depend on the processing

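Counts of genes past 4-fold stayed within 1.5 times of the reported ones when 20 CPM replaced 50, with the mean of single-cell CPM, with TMM factors, with all 4 libraries summed and without the 10% of cells with most UMIs, for each of the 4 comparisons between populations. With no filter on low values the counts were 1078 against tendon fibroblasts 1, 700 against tendon fibroblasts 2, 1023 against bursal fibroblasts and 4125 against non-fibroblasts. With cells thinned to 2400 UMIs, which leaves fewer UMIs and so fewer genes compared, they were 221 against tendon fibroblasts 2, 286 against bursal fibroblasts and 486 against non-fibroblasts, and between the 2 sets 77 in place of 277. Without library 1 they were 370, 293, 439 and 378 against the same 4 populations in that order, from 6 cells. The 14 Apod-high cells alone gave 532 against non-fibroblasts. TMM factors moved the log2 ratios by -0.203, 0.0551, -0.118 and 0.164 in the 4 comparisons, and higher calls went from 57.7% to 50% against tendon fibroblasts 1. Over single genes, 376 of 544 alternative values stayed within the counting interval, 165 moved outside it and 3 turned direction. These 3, without library 1, were Nov at 0.23, Tppp3 at 0.80 and Col3a1 at -1.12 on the log2 scale, against tendon fibroblasts 2. Dividing the 45 cells by a Gdf10 UMI gave 303 genes in place of 277. The mean share lay between 1.15% and 3.60% with a library left out in turn, and was 3.18% without red blood cells. The alternatives that use the Apod division, and every alternative of the 2-set comparison, were chosen after seeing the data.

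No paired analysis was possible because all libraries form 1 group. Results rest on 45 cells of library 1 and 296283 UMIs, and nothing tells the spread between mice. Genes under 50 CPM on both sides were left out of the reported comparisons by the filter.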
